A study of Mus musculus with 12 samples.

Results

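The genes described here are 10 surface and granule markers by which leukocytes and lymphocytes are told from other cells in liver RNA. Ptprc marks leukocytes of all lineages, Cd3e, Cd3g, Cd4 and Cd8a mark T cells, Cd79a, Cd79b and Ms4a1 mark B cells, and Nkg7 and Gzma mark cytotoxic lymphocytes. Each gene is the single row of the deposited count table with that symbol, so the set makes up 10 of the 24411 rows. All 10 were among the 13922 genes that had enough counts to be tested.

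Ptprc encodes CD45, the receptor tyrosine phosphatase that nucleated blood cells carry and that sets the threshold of antigen receptor signalling. T cells signal through the CD3 chains bound to the T cell receptor, with CD4 or CD8 as the coreceptor for class II or class I MHC, and B cells signal through the CD79A and CD79B chains bound to surface immunoglobulin. The liver holds many resident lymphocytes beside its Kupffer cells, with CD8 T cells, natural killer (NK) cells and natural killer T cells prominent among them, and the killing function of these cells depends on granules that hold granzymes.

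Poly(A) RNA was sequenced from whole liver of 3-month-old C57BL/6 mice in 3 genotypes with 3 mice each. All 9 mice were Atg7 flox/flox, that is, both copies of Atg7, which encodes an enzyme that autophagy needs, carried loxP sites. Cont. mice had nothing further, Atg7-KO mice had the Alb-Cre transgene as well, and Atg7-KO;p62T352A mice had both Alb-Cre and the p62 T352A/T352A exchange. Alb-Cre deletes Atg7 in hepatocytes, so the leukocytes themselves kept Atg7. The T352A exchange was made in the endogenous p62 gene (Sqstm1) of embryonic stem cells and is therefore present in leukocytes as well as in hepatocytes, takes from the autophagy receptor p62 its binding to KEAP1, and was also bred without Alb-Cre, but mice with this exchange and intact Atg7 were not analysed here. The question was how far the leukocyte content of liver RNA differed between autophagy-deficient and control liver, and between autophagy-deficient livers with and without KEAP1 binding by p62. In RNA of whole liver, fewer cells of a type and less RNA per cell cannot be told apart.

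The libraries held 9671073 to 23285134 counts. Atg7, the targeted gene, stood at 48.7 ± 5.94 normalized CPM (CPM, counts scaled to a common library size, here after TMM scaling, mean ± SD, n = 3) in cont., at 10.6 ± 1.27 in Atg7-KO and at 28.9 ± 1.28 in Atg7-KO;p62T352A. Xist, the RNA of the inactive X chromosome of females, had 7 to 28 counts in the mouse numbered 1 of each genotype and 8578 to 18335 counts in the other 6 mice. By these counts the mice numbered 1 were male and the other 6 female. Sex was not a term of the model, and results without the mice numbered 1 rest on females alone. TMM factors were 1.28 to 1.32 in Atg7-KO and 0.75 to 0.95 in the other 6 libraries. With scaling by total counts alone, the median over all tested genes moved, on the log2 scale, from -0.032 to 0.55 for Atg7-KO against cont. and from 0.0021 to -0.57 for Atg7-KO;p62T352A against Atg7-KO. The genes called higher and lower then numbered 5926 and 1103 in the first comparison, in place of 3006 and 3074, and 1342 and 6138 in the second, in place of 3443 and 3652.

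In Atg7-KO liver, the leukocyte marker Ptprc, the CD8 coreceptor gene Cd8a, the granule genes Nkg7 and Gzma and the CD3 chain genes Cd3e and Cd3g were higher than in cont. liver, by 2.48-fold for Cd3g to 14.8-fold for Cd8a. The B cell receptor genes Cd79a and Cd79b, the B cell surface gene Ms4a1 and the other coreceptor gene Cd4 did not pass the test. A gene was called when edgeR's quasi-likelihood test gave a Benjamini-Hochberg adjusted p under 0.05 over all 13922 genes and the fold change was over 1.5. By this rule 6 of the 10 genes were called higher, beside 21.6% of all tested genes, and 0 were called lower, beside 22.1% of all tested genes. Every Atg7-KO mouse lay above every cont. mouse in the same 6 genes, an order found in 29.2% of all tested genes. Over the 10 genes the log2 fold change had a median of 1.39, beside -0.032 over all tested genes. Some of the 10, such as Cd8a, entered the test through genotypes in which they were higher. The set was also chosen with earlier results of these data known, so these counts and the median are descriptions.

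**Figure D1:**
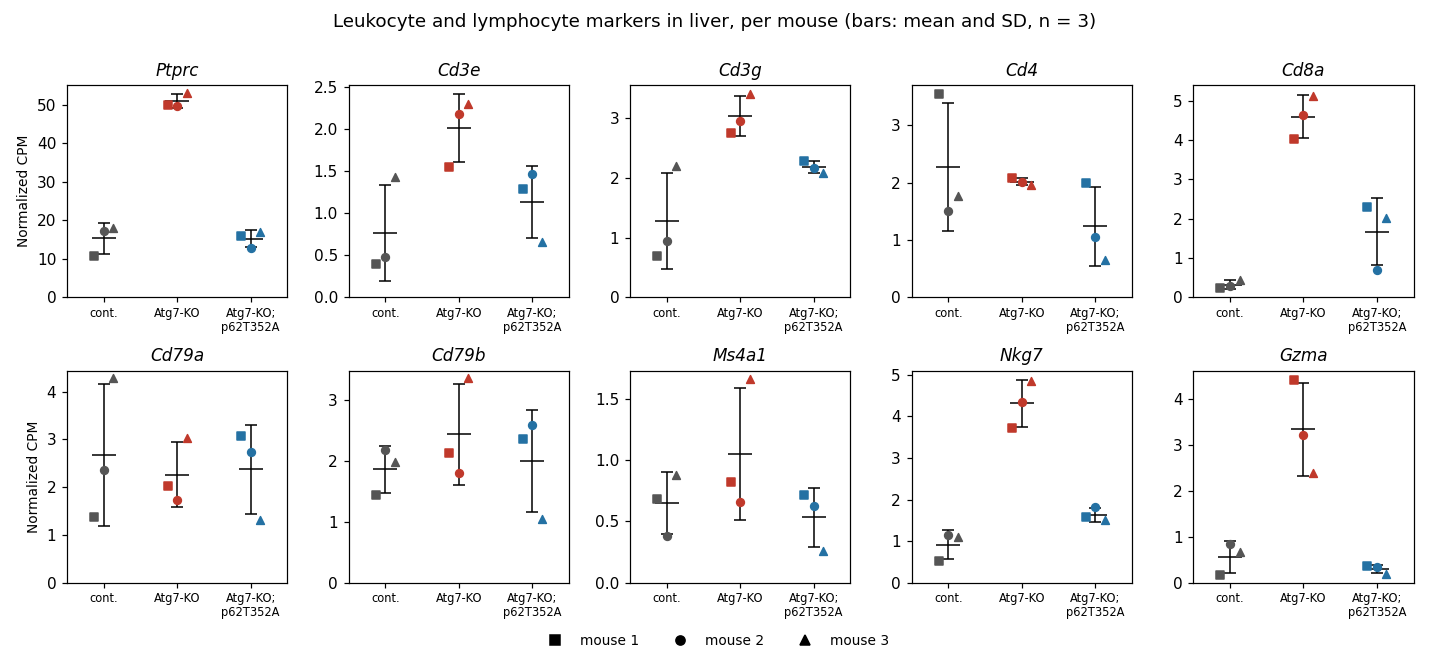
Normalized CPM (y axis, linear, from 0, with its own range in each panel) of the 10 marker genes in each of the 9 mice, by genotype (x axis); symbols give the mouse number, and the bars are the mean and SD of 3 mice. The 3 Atg7-KO mice stand above the other 6 mice in Ptprc, Cd3e, Cd3g, Cd8a, Nkg7 and Gzma, while the 3 genotypes overlap in Cd79a, Cd79b and Ms4a1.

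Ptprc (chr1:138062861-138175708 in GRCm38, the mm10 build, minus strand) was the most abundant of the 10 genes. Its normalized CPM was 10.6, 17.3 and 17.9 in the 3 cont. mice and 49.9, 49.7 and 52.9 in the 3 Atg7-KO mice. The Atg7-KO mice were close to each other and none came near the highest cont. mouse. The log2 fold change was 1.74 (SE 0.22, adjusted p = 0.000302 by edgeR), a 3.34-fold higher level with a 95% confidence interval of 2.37 to 4.72. Of 20 other genes shared by leukocytes of all lineages, 20 were called higher, with a median log2 fold change of 1.81. The smallest change among them was that of Cd37, a tetraspanin of lymphocytes (1.10, SE 0.35, adjusted p = 0.027), and the largest that of Laptm5, a lysosomal membrane protein of leukocytes (2.53, SE 0.18, adjusted p = 2.15e-05).

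Marker genes of several other cell types differed as well, and not all lists in the direction of Ptprc. The summed normalized CPM of 20 macrophage and Kupffer cell genes was 472 to 696 in cont. and 2393 to 2534 in Atg7-KO, and 17 of the 20 were called higher and 1 lower. Clec4f, a lectin particular to Kupffer cells, stood at 131 ± 22.0 and 182 ± 9.94, a difference under the 1.5-fold threshold. Timd4, a phosphatidylserine receptor of resident Kupffer cells and the gene that was lower, stood at 7.80 ± 1.98 and 3.17 ± 0.88. Of 12 tested stellate cell genes 10 and of 9 tested bile duct cell genes 7 were called higher, and of 12 hepatocyte genes 8 were called lower, with a summed level of 82167 to 144399 in cont. and 42420 to 45564 in Atg7-KO. The summed erythroid list went from 519 to 1119 in cont. to 314 to 378 in Atg7-KO, and of its 5 tested genes 2 were called lower and 0 higher. Of 11 tested dendritic cell genes 4 (36.4%) were called higher and 0 lower. Of 8 tested neutrophil genes 4 were called higher and 1 lower, with a median log2 fold change of 1.29. The summed neutrophil list stood at 34.6 ± 21.4 in cont. and 22.8 ± 4.96 in Atg7-KO. The lower gene was Hdc (-2.62, SE 0.62, adjusted p = 0.00719), the most abundant gene of the list in cont. The lower sum rests on Hdc and does not describe the list as a whole. Of 12 sinusoidal endothelial genes 3 (25%) were called higher and 1 (8.33%) lower, with a median log2 fold change of -0.14. Over all tested genes 21.6% were called higher and 22.1% lower, so the sinusoidal share called higher was close to that of all genes. The part that these cell types have in the level of Ptprc was not tested.

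Among the T cell genes, Cd8a (chr6:71373427-71379173, plus strand), which encodes the alpha chain of CD8, differed most. It had 4, 3 and 4 counts in the cont. mice and 83, 113 and 120 counts in the Atg7-KO mice, or 0.229, 0.284 and 0.44 against 4.01, 4.64 and 5.12 normalized CPM. The lowest Atg7-KO mouse was thus far above the highest cont. mouse, although the cont. level rests on 11 counts in all (exact 95% Poisson interval 5.49 to 19.7, which covers counting error only). The log2 fold change was 3.89 (SE 0.49, adjusted p = 0.000273), a 14.8-fold difference with a 95% confidence interval of 6.98 to 31.6. Cd8b1, which encodes the beta chain of CD8, had 2 to 4 counts in cont. and 30 to 45 counts in Atg7-KO, and rose by 2.95 on the log2 scale (SE 0.36, adjusted p = 0.000249).

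Cd4 (chr6:124864692-124888221, minus strand), the coreceptor of helper T cells that Kupffer cells of mice can also carry, had 3.55, 1.51 and 1.76 normalized CPM in cont. and 2.08, 2.01 and 1.96 in Atg7-KO. All 3 Atg7-KO mice lay between the lowest and the highest cont. mouse. The log2 fold change was -0.21 (95% confidence interval -1.16 to 0.75, adjusted p = 0.713), and it was 0.30 without cont. mouse 1, which had 62 Cd4 counts where the other cont. mice had 16 each. With scaling by total counts it was 0.43, which is below the median of all genes on that scale.

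Cd3e (chr9:44998740-45009627, minus strand) and Cd3g (chr9:44969572-44980431, minus strand) are neighbouring genes for the epsilon and gamma chains of the CD3 complex. Cd3e stood at 0.401, 0.473 and 1.43 normalized CPM in cont. and at 1.55, 2.18 and 2.30 in Atg7-KO. Cd3g stood at 0.688, 0.946 and 2.20 in cont. and at 2.76, 2.96 and 3.41 in Atg7-KO. In both genes cont. mouse 3 was well above the other cont. mice and just below the lowest Atg7-KO mouse. The log2 fold changes were 1.47 for Cd3e (SE 0.50, adjusted p = 0.0369) and 1.31 for Cd3g (SE 0.39, adjusted p = 0.0201). Both calls were lost without cont. mouse 2 (log2 fold change 1.19, adjusted p = 0.121 for Cd3e, and 1.10, 0.0698 for Cd3g), without Atg7-KO mouse 2 (1.40, 0.101 and 1.32, 0.0541) and without Atg7-KO mouse 3 (1.35, 0.108 and 1.21, 0.0697). That of Cd3e was also lost without cont. mouse 1 (1.11, 0.0763), Atg7-KO mouse 1 (1.61, 0.0559) or Atg7-KO;p62T352A mouse 1 (1.46, 0.0515). Both calls were also lost without the mice numbered 1 (1.27, 0.0770 and 1.04, 0.0514). Without cont. mouse 3 the log2 fold changes were 2.20 for Cd3e and 1.91 for Cd3g. Gm48719 overlaps 3.31% of the exon bases of Cd3e, and reads from that stretch may be counted for either gene.

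Other T cell genes changed less evenly. Of 20 tested genes 7 (35%) were called higher and 0 lower, beside 21.6% and 22.1% of all tested genes. Their median log2 fold change was 0.72. Beside Cd8b1 the largest change was that of Cd247, the zeta chain of the T cell receptor complex (2.33, SE 0.70, adjusted p = 0.0223). The CD3 delta chain gene Cd3d had a log2 fold change of 1.17 (adjusted p = 0.0579), and the adhesion gene Cd2 had one of 0.43 (adjusted p = 0.432), so neither passed the test. Towards the other end stood Lef1, a transcription factor of naive T cells (-0.51), which did not pass the test either. Cd3d, Cd2 and the genes that are named below beside the most extreme members of a list were chosen after their values were seen.

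The B cell genes did not follow. Cd79a (chr7:24897381-24902197, plus strand) stood at 1.38, 2.36 and 4.29 normalized CPM in cont. and at 2.03, 1.73 and 3.03 in Atg7-KO. Cd79b (chr11:106311341-106314762, minus strand) stood at 1.43, 2.17 and 1.98 in cont. and at 2.13, 1.81 and 3.37 in Atg7-KO. Ms4a1 (chr19:11249675-11266241, minus strand), which encodes CD20, stood at 0.688, 0.378 and 0.879 in cont. and at 0.822, 0.657 and 1.66 in Atg7-KO. The genotypes overlapped in all 3 genes, and Atg7-KO mouse 3 was the highest mouse of its genotype in each. The log2 fold changes were -0.20 for Cd79a (95% confidence interval -1.23 to 0.83, adjusted p = 0.738), 0.40 for Cd79b (-0.48 to 1.29, 0.426) and 0.69 for Ms4a1 (-0.46 to 1.84, 0.295). The intervals leave room for a 1.77-fold higher level of Cd79a and a 3.59-fold higher level of Ms4a1, and that of Cd79a turned in sign without cont. mouse 3, to 0.30. Of the 75-base stretches of Cd79a transcripts, 4.48% also occur in Gm32220, so a small share of its reads may be split between both genes.

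Of 18 other tested B and plasma cell genes 4 were called higher and 2 lower, with a median log2 fold change of -0.030. The share called higher, 22.2%, was close to the 21.6% of all tested genes. The 4 higher genes were Cd180 (2.81, SE 0.34, adjusted p = 0.000223), a Toll-like receptor homologue of B cells and macrophages, Prdm1 (2.80, SE 0.43, adjusted p = 0.000836), a transcription factor of plasma cells that T cells and macrophages also use, Cd72 (1.74, adjusted p = 0.00383) and Bank1 (1.25, adjusted p = 0.00546). The 2 lower genes were Derl3 (-2.10, adjusted p = 0.00543), a factor of protein disposal in secretory cells, and Jchain (-1.45, adjusted p = 0.0163), the joining chain of secreted antibodies. The B lineage transcription factor gene Pax5 stood at a log2 fold change of -2.02 (adjusted p = 0.0554) and was not called.

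The cytotoxic genes rose with Cd8a. Nkg7 (chr7:43437073-43438249, plus strand), a granule membrane protein of NK cells and CD8 T cells, stood at 0.516, 1.13 and 1.10 normalized CPM in cont. and at 3.72, 4.36 and 4.86 in Atg7-KO. Gzma (chr13:113093825-113100981, minus strand), which encodes the serine protease granzyme A, stood at 0.172, 0.851 and 0.659 in cont. and at 4.40, 3.21 and 2.39 in Atg7-KO. No cont. mouse reached the lowest Atg7-KO mouse in either gene, and within Atg7-KO the mouse that was lowest in Nkg7 was highest in Gzma. The log2 fold changes were 2.28 for Nkg7 (SE 0.33, adjusted p = 0.000568), a 4.87-fold difference, and 2.66 for Gzma (SE 0.50, adjusted p = 0.00249), a 6.31-fold difference. Without the mice numbered 1, that of Gzma was 1.87 (adjusted p = 0.00535).

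Of 19 other tested NK and cytotoxic genes 9 (47.4%) were called higher and 1 (5.26%) lower, beside 21.6% and 22.1% of all tested genes. Their median log2 fold change was 1.08. Among the 19, 6 had at most 3 counts in every cont. mouse and entered the test through genotypes in which they were higher. The share and the median are therefore descriptions. Ccl5, a chemokine that activated CD8 T cells and NK cells release, stood at 2.23 ± 1.58 normalized CPM in cont. and at 21.8 ± 6.05 in Atg7-KO (log2 fold change 3.37, SE 0.56, adjusted p = 0.00128). Gzmk, the gene of granzyme K, had at most 1 count per cont. mouse and 16 to 35 counts per Atg7-KO mouse, which makes it at least 3.90-fold higher against a floor of 3 counts per library. On the same floor Eomes, a transcription factor of NK cells and CD8 T cells, was at least 3.84-fold higher and the pore-forming Prf1 at least 2.68-fold higher. The single lower gene was S1pr5, a sphingosine phosphate receptor of NK cells and of endothelium (-2.73, SE 0.35, adjusted p = 0.000304). Klrb1c, the NK1.1 receptor gene, stood at 0.968 ± 0.121 and 0.759 ± 0.112 (log2 fold change -0.33, adjusted p = 0.508).

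Of 24 genes for antigen receptor signalling 12 (50%) were called higher and 2 (8.33%) lower, beside 21.6% and 22.1% of all tested genes. The largest changes were those of Sla, an adaptor that dampens receptor signalling (2.46, SE 0.27, adjusted p = 0.000139), and of Blnk, the B cell linker that macrophages also use (2.39, SE 0.39, adjusted p = 0.00115). Zap70, the kinase that binds the CD3 and zeta chains, went the other way. It stood at 17.0 ± 7.20 normalized CPM in cont. and at 2.96 ± 0.19 in Atg7-KO (log2 fold change -2.51, SE 0.33, adjusted p = 0.000335), so it was more abundant than its partner chains Cd3e and Cd247 in cont. and fell while they rose. Plcg1, a phospholipase that many cell types express, was lower by a log2 fold change of -0.87 (adjusted p = 0.032).

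The sequences upstream of 3 members are shown because each followed a different course over the 3 comparisons: Cd8a was called in each of them, Gzma in both comparisons with Atg7-KO, and Cd3g in the first alone. They are the 250 bases before the start site in RefSeq (GRCm38.p6), read along the gene's own strand, with matches to 7 short motifs in capitals. RefSeq windows were at hand for 7 of the 10 genes (Ptprc, Cd3e, Cd3g, Cd8a, Cd79a, Nkg7 and Gzma). The windows lie at chr6:71373177-71373426 (plus strand) for Cd8a, chr13:113100982-113101231 (minus strand) for Gzma and chr9:44980432-44980681 (minus strand) for Cd3g.
Cd8a: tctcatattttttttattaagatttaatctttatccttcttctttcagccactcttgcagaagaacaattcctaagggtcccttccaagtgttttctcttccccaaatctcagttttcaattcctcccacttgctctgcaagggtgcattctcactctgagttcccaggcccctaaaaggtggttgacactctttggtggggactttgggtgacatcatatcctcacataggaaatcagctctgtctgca
Gzma: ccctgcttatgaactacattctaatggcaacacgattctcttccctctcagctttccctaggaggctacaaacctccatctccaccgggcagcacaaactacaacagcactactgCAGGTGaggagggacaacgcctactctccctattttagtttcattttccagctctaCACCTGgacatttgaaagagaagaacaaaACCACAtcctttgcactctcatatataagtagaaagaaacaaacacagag
Cd3g: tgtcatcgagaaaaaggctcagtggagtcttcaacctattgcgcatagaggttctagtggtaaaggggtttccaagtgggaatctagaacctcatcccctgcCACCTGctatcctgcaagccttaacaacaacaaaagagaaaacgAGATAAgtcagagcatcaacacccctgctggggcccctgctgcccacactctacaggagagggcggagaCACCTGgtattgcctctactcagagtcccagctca

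The motifs were searched on both strands and were AGGAAG for ETS factors, TGTGGT for RUNX factors, GGTGTGA for T-box factors, AGATAA for GATA factors, ATTTGCAT for octamer factors, CAGGTG as an E-box and TATAAA as a TATA box, of which none contains another. Cd8a held no match in this window. Gzma held 1 RUNX match, 50 bases before the start, and 2 E-boxes at 135 and 79 bases, and Cd3g held 1 GATA match at 104 bases and 2 E-boxes at 148 and 35 bases. An E-box was present in 17.2%, a RUNX match in 14.0% and a GATA match in 9.99% of all 32851 RefSeq windows of this length. Nkg7 held the single T-box match of the 7 genes, 13 bases before its start, beside an ETS and a RUNX match, and a T-box match was present in 3.33% of all windows. The matches describe these letters and do not show that a factor binds there.

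In Atg7-KO;p62T352A liver, Ptprc, Cd8a, Nkg7 and Gzma were lower than in Atg7-KO liver, by 2.64-fold for Nkg7 to 10.9-fold for Gzma. The 3 B cell genes, Cd4 and the 2 CD3 genes did not pass the test. By the same rule 4 of the 10 genes were called lower, beside 26.2% of all tested genes, and 0 were called higher, beside 24.7%. Every Atg7-KO;p62T352A mouse lay below every Atg7-KO mouse in 6 genes, which were these 4 and both CD3 genes, and 36.8% of all tested genes showed that order. Over the 10 genes the log2 fold change had a median of -0.90, beside 0.0021 over all tested genes. As in the first comparison, these counts and the median are descriptions. This comparison shares its Atg7-KO mice with the one above, so a gene that was high in those mice enters both. Both groups carried Alb-Cre, and their Atg7 levels of 28.9 ± 1.28 and 10.6 ± 1.27 normalized CPM differed, and the part that this has in the results was not tested.

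**Figure D2:**
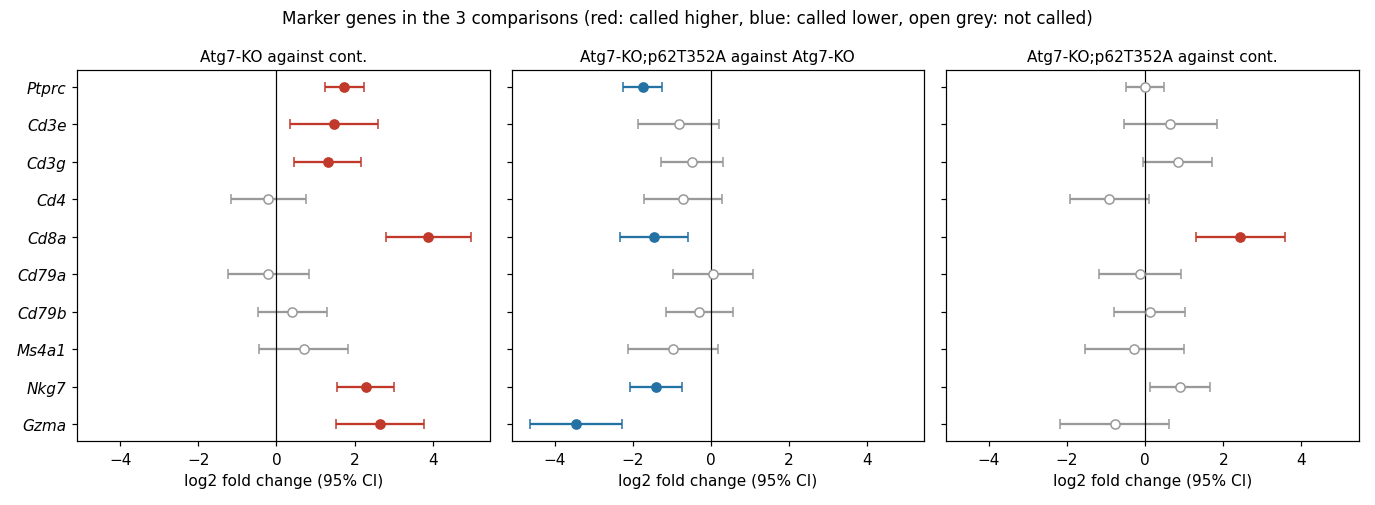
Log2 fold change (x axis) of the 10 marker genes (y axis) in the 3 comparisons, with 95% confidence intervals from the quasi-likelihood fit; filled red points were called higher, filled blue points lower, and open grey points were not called. In the left panel 6 genes are called higher, in the middle panel 4 genes are called lower, and in the right panel Cd8a alone is called, with an interval of 1.29 to 3.58.

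Ptprc stood at 15.9, 12.7 and 16.8 normalized CPM in the Atg7-KO;p62T352A mice, within the cont. range of 10.6 to 17.9 and far below the Atg7-KO mice. Its log2 fold change was -1.75 (SE 0.22, adjusted p = 0.000263). Of the 20 other leukocyte genes 19 were called lower, and Ptprcap, which encodes a protein bound to CD45, was not. The summed macrophage and Kupffer cell list went to 475 to 754 normalized CPM, the hepatocyte list to 118682 to 136228, and the erythroid list from 314 to 378 in Atg7-KO to 558 to 891. Of the 5 tested erythroid genes 2 were called higher and 1 lower. The lower one was the hemoglobin gene Hba-a1 (192 ± 23.3 to 0.350 ± 0.607 normalized CPM), which ran from 46 to 3203 counts within cont. alone. The hemoglobin gene Hba-a2, among the 2 higher genes, went the other way (117 ± 21.3 to 621 ± 151 normalized CPM). The part of these changes in the level of Ptprc was not tested.

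Cd8a stood at 2.28, 0.70 and 2.02 normalized CPM in Atg7-KO;p62T352A, with 32, 10 and 31 counts. These 3 mice lay between the cont. and the Atg7-KO mice, and mouse 2 was lower than the other mice of its genotype. The log2 fold change against Atg7-KO was -1.46 (SE 0.39, adjusted p = 0.0106), and Cd8b1 fell by a like amount (-1.46, SE 0.30, adjusted p = 0.00305). Nkg7 stood at 1.57, 1.82 and 1.5 normalized CPM, in a narrow range below Atg7-KO, with a log2 fold change of -1.40 (SE 0.30, adjusted p = 0.00373).

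Gzma went lowest of the 10 genes. It had 5, 5 and 3 counts in the Atg7-KO;p62T352A mice and 91, 78 and 56 counts in the Atg7-KO mice, or 0.357, 0.35 and 0.196 normalized CPM against 4.40, 3.21 and 2.39. The log2 fold change was -3.44 (SE 0.53, adjusted p = 0.00064), and the lower level rests on 13 counts in all (exact 95% Poisson interval 6.92 to 22.2). Other granule genes were at the floor of detection as well. Gzmk had at most 1 count per Atg7-KO;p62T352A mouse, which puts it at least 4.94-fold lower against 3 counts per library, and Prf1 had 0 counts in each of these mice, at least 3.39-fold lower. Gzmb, by contrast, had 11 to 20 counts there and 31 to 46 counts in Atg7-KO and was not called.

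Cd3e stood at 1.29, 1.47 and 0.653 normalized CPM in Atg7-KO;p62T352A, with a log2 fold change of -0.83 (95% confidence interval -1.87 to 0.21, adjusted p = 0.158). Cd3g stood at 2.28, 2.17 and 2.09, with a log2 fold change of -0.48 (-1.28 to 0.32, 0.281). All 3 mice lay below the lowest Atg7-KO mouse in both genes, but the differences were small beside their standard errors of 0.46 and 0.36. Cd4 stood at 2.00, 1.05 and 0.653, with a log2 fold change of -0.71 (-1.71 to 0.28, 0.198). Without the mice numbered 1, Cd4 was called lower (-1.22, adjusted p = 0.0213).

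Cd79a stood at 3.07, 2.73 and 1.31 normalized CPM, Cd79b at 2.36, 2.59 and 1.04 and Ms4a1 at 0.714, 0.63 and 0.261. In all 3 B cell genes the Atg7-KO;p62T352A mouse numbered 3 was the lowest of the 9 mice. The log2 fold changes against Atg7-KO were 0.062 for Cd79a (-0.96 to 1.08, adjusted p = 0.916), -0.29 for Cd79b (-1.15 to 0.57, 0.547) and -0.97 for Ms4a1 (-2.12 to 0.18, 0.135). Of the 18 other B and plasma cell genes 5 were lower and 2 higher. The share called lower, 27.8%, was close to the 26.2% of all tested genes. Cd180 had the largest change (-5.09, SE 0.40, adjusted p = 3.48e-05) and went below its cont. level of 1.86 ± 0.86 normalized CPM to 0.389 ± 0.173, and Derl3 (3.48, SE 0.46, adjusted p = 0.000304) and Pax5 (2.61, SE 0.72, adjusted p = 0.013) were the 2 higher genes.

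Of 20 other T cell genes 6 (30%) were lower and 0 higher, and of 19 other NK and cytotoxic genes 7 (36.8%) were lower and 1 higher. Of all tested genes 26.2% were called lower and 24.7% higher. Among the 19 cytotoxic genes, 4 had at most 3 counts in every Atg7-KO;p62T352A mouse, so their share is a description. Of the 24 antigen receptor signalling genes 15 were lower, and Zap70 was the 1 higher gene (2.73, SE 0.33, adjusted p = 0.000208), at 19.6 ± 5.96 normalized CPM. Blnk stayed at 6.64 ± 0.38 normalized CPM, beside 7.56 ± 1.25 in Atg7-KO (log2 fold change -0.19, SE 0.34), and was not called. S1pr5, the gene of the cytotoxic list that had been lower in the first comparison, was the 1 higher gene of that list (2.80, SE 0.35, adjusted p = 0.000241).

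**Figure D3:**
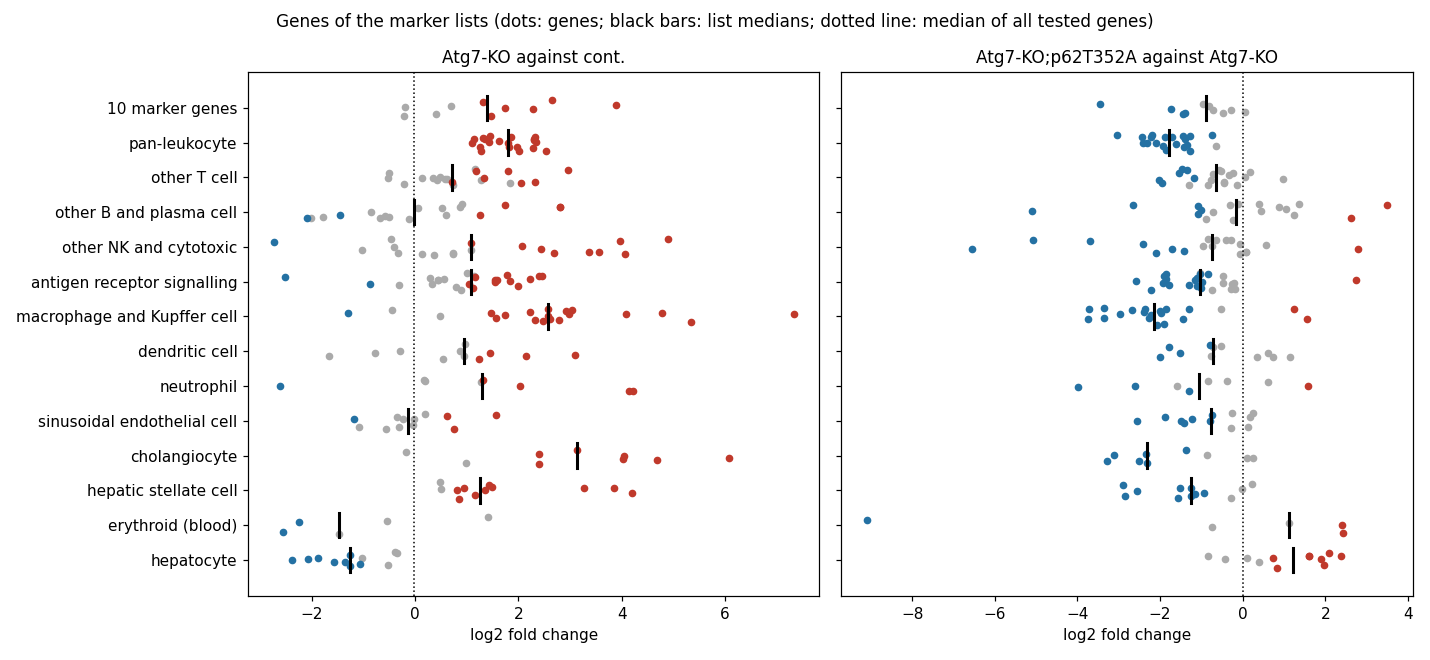
Log2 fold change (x axis) of single genes (dots; red called higher, blue called lower, grey not called) of the 10 marker genes and 13 marker lists (y axis), for Atg7-KO against cont. on the left and Atg7-KO;p62T352A against Atg7-KO on the right; black bars are list medians and the dotted lines the medians of all tested genes. The 20 leukocyte genes lie on one side of 0 in each panel, while the B and plasma cell genes spread to both sides around a median of -0.030 on the left and -0.17 on the right.

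When Atg7-KO;p62T352A liver was set against cont. liver, Cd8a was the 1 gene of the 10 that was called, with a level of 1.67 ± 0.85 against 0.317 ± 0.109 normalized CPM. Of all tested genes 6.25% were called higher and 5.34% lower. The log2 fold change of Cd8a was 2.44 (SE 0.51, adjusted p = 0.0184), a 5.41-fold difference with a 95% confidence interval of 2.45 to 11.9, and all 3 Atg7-KO;p62T352A mice lay above all 3 cont. mice. The call was lost without cont. mouse 2 (log2 fold change 2.32, adjusted p = 0.0593), Atg7-KO;p62T352A mouse 1 (2.15, 0.0527) or Atg7-KO;p62T352A mouse 3 (2.27, 0.0657) and without the mice numbered 1 (1.92, 0.0733). Cd8b1 was the 1 other T cell gene called, also higher (1.49, SE 0.40, adjusted p = 0.0427). Of other cell types, 4 of 9 bile duct cell genes, 5 of 20 macrophage and Kupffer cell genes and 3 of 12 stellate cell genes were called higher and 7 of 12 sinusoidal endothelial genes lower, and the part that these have in the level of Cd8a was not tested.

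Nkg7 stood at 1.63 ± 0.17 normalized CPM against 0.916 ± 0.348, above cont. in every mouse, with a log2 fold change of 0.88 (95% confidence interval 0.12 to 1.65) that did not pass the test over all genes (adjusted p = 0.127). Ptprc stood at 15.1 ± 2.19 against 15.3 ± 4.06 (log2 fold change -0.0057, 95% confidence interval -0.50 to 0.48, adjusted p = 0.991). Gzma stood at 0.301 ± 0.091 against 0.561 ± 0.350 (-0.78, -2.18 to 0.61, 0.45). The interval of Ptprc reaches from a 0.709-fold to a 1.40-fold level, and that of Gzma from a 0.22-fold to a 1.53-fold level. Cd3g was at 0.83 (-0.055 to 1.72, adjusted p = 0.203) and was called higher without cont. mouse 3 (1.44, adjusted p = 0.0235), and Cd4 was at -0.92 (-1.93 to 0.094, 0.216). Of the cytotoxic list Ccl5 was called higher (1.95, SE 0.55, adjusted p = 0.0495), at 8.14 ± 3.10 normalized CPM.

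To see which markers moved by more or less than leukocyte RNA as a whole, each was set against Ptprc in the same mouse, as the log2 of the ratio of normalized CPM with 0.1 CPM added to both. Cd8a had 2.16, 1.64 and 2.45 counts per 100 Ptprc counts in the cont. mice, 8.04, 9.34 and 9.67 in the Atg7-KO mice and 14.3, 5.52 and 12.0 in the Atg7-KO;p62T352A mice. Its log2 ratio was 1.75 higher in Atg7-KO than in cont. and did not overlap between them, and with 1 CPM added it was 0.38 higher. The ratio of Cd79a took the other course, with 12.97, 13.7 and 23.9 counts per 100 Ptprc counts in cont., 4.07, 3.47 and 5.72 in Atg7-KO and 19.3, 21.5 and 7.75 in Atg7-KO;p62T352A. This ratio moved mostly through Ptprc. The log2 fold changes of Cd79a itself were -0.20 for Atg7-KO against cont. and 0.062 for Atg7-KO;p62T352A against Atg7-KO. Those of Ptprc were 1.74 and -1.75.

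Relative to Ptprc, Cd79a differed by -1.90 between Atg7-KO and cont. on the log2 scale, Cd79b by -1.42 and Cd4 by -1.83, each without overlap. Without cont. mouse 1, which had 33.5 Cd4 counts per 100 Ptprc counts where the other cont. mice had 8.74 and 9.82, the difference of Cd4 was -1.23. Nkg7 was higher by 0.41, also without overlap, although with 1 CPM added the difference was -0.22. Cd3e (-0.31) and Cd3g (-0.43) overlapped between the genotypes, as did Gzma (0.75, and -0.23 with 1 CPM added) and Ms4a1 (-1.19). The exact permutation test of 3 mice against 3 cannot give a two-sided p below 0.1, which is the value of each difference without overlap (0.193 after Benjamini-Hochberg adjustment over 27 ratios), so none of these differences could pass a threshold of 0.05. The 20 other leukocyte genes include genes that macrophages express, and Ptprc itself is not particular to lymphocytes.

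**Figure D4:**
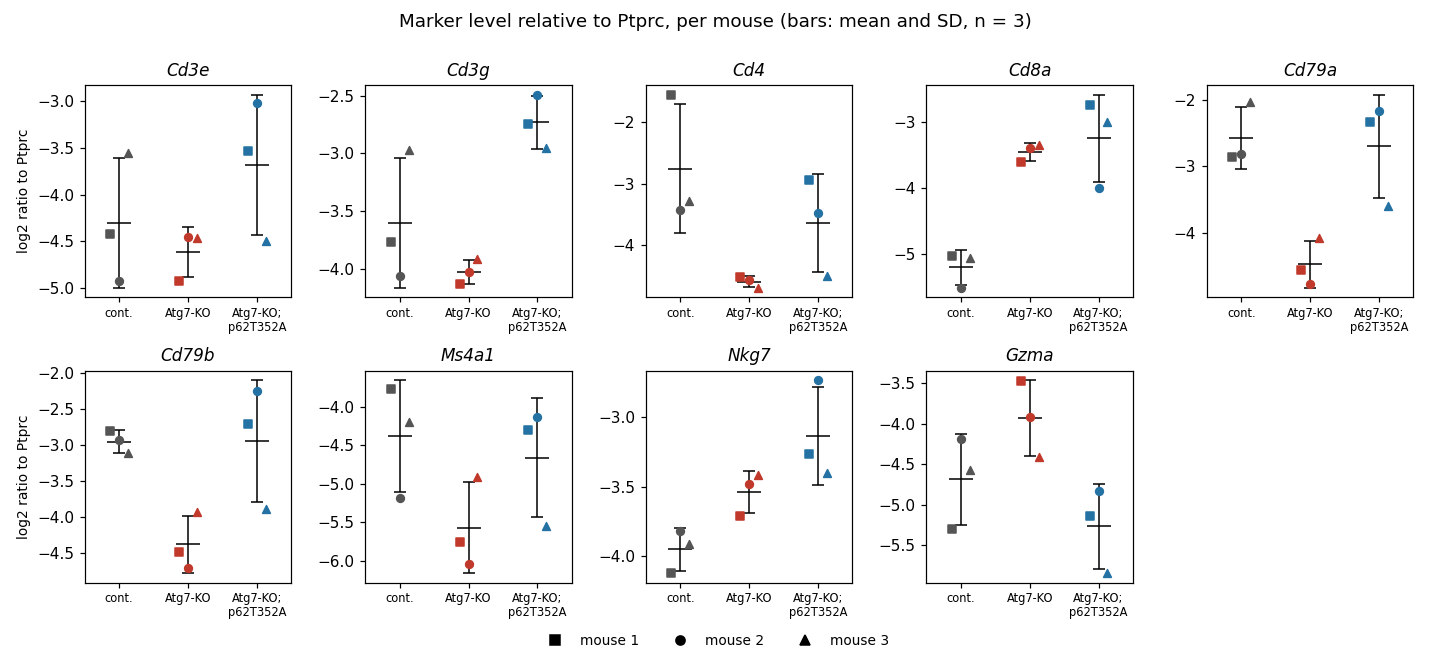
Log2 ratio of each marker gene to Ptprc (y axis, normalized CPM with 0.1 CPM added, with its own range in each panel) in each of the 9 mice by genotype (x axis); symbols give the mouse number, and the bars are the mean and SD of 3 mice. Cd8a goes from a mean of -5.20 in cont. to -3.45 in Atg7-KO, while Cd79a goes from -2.57 to -4.47.

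In Atg7-KO;p62T352A against Atg7-KO, the ratio to Ptprc was higher for Cd79a (1.77), Cd79b (1.43), Cd3g (1.29), Cd4 (0.96) and Nkg7 (0.40) and lower for Gzma (-1.33), each without overlap and each at the smallest exact permutation p of 0.1. The ratio of Cd8a hardly differed (0.20, p = 0.7 by the exact permutation test). With 1 CPM added, the difference of Gzma was -0.020.

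Per kilobase of the principal transcript, Ptprc was the most abundant of the 10 genes in every genotype, at 3.25, 10.8 and 3.22 normalized CPM per kb in cont., Atg7-KO and Atg7-KO;p62T352A. In cont. it was followed by Cd79a (1.84 ± 1.02), Cd79b (1.56 ± 0.32), Cd3g (1.25 ± 0.79) and Nkg7 (1.04 ± 0.39), which do not differ from their neighbours beyond their spread, and Cd8a was last (0.102 ± 0.035). In Atg7-KO the next were Nkg7 (4.90 ± 0.65), Gzma (3.79 ± 1.15) and Cd3g (2.97 ± 0.33), and Cd8a was in place 7 (1.47 ± 0.18), within the spread of Cd79a and Cd3e. In Atg7-KO;p62T352A Cd3g (2.13 ± 0.10), Nkg7 (1.85 ± 0.19) and Cd79b (1.67 ± 0.70) came next, and Gzma was in place 9 (0.343 ± 0.104).

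The genes whose log2 CPM over the 9 mice was most like that of a marker were looked up for 4 of them, as a description, since the mice fall into 3 genotypes and each pair of genes shares its libraries. For Ptprc they were Abcc1, Aim1 and Pld4 (Pearson r = 0.993 for each), and 287 genes had an r over 0.95. For Nkg7 they were Tnfrsf10b, Mvp (0.988 each) and Plk2 (0.986), with 118 genes over 0.95. For Cd3e they were Rnpep (0.959), Pltp (0.944) and Hmgn2 (0.922). For Cd79a they were Sytl4, the B cell IgE receptor gene Fcer2a (0.915 each) and Dgke (0.888), and no gene passed 0.95.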

How the data were processed

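Single-end reads of 75 bases from liver poly(A) RNA were mapped to mm10 with STAR by the authors, and the deposited values are RSEM expected counts per gene with 1 column per mouse and no scaling. Per the labels Trim Galore was also used. Tool versions, the annotation and the strand setting are not given in the sources used here, and the RNA was extracted with the RNeasy kit per the labels and with TRIzol per the study's methods. Expected counts were rounded to whole numbers. Labels exist for 3 mice with p62 T352A and intact Atg7, which are not analysed here.

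The main test was edgeR (4.0.16, in R 4.3.3), and DESeq2 (1.42.0) served as an alternative. Figures and sequence searches were made in Python 3.11.15. Genes were kept by filterByExpr (0.609 CPM, equal to 10 counts in the median library), a level that Cd8a reached in 0, Cd3e and Ms4a1 in 1 and Cd3g, Nkg7 and Gzma in 2 of the 3 cont. mice, and Ms4a1 and Gzma in 0 Atg7-KO;p62T352A mice. These genes entered the test through the genotypes in which they were higher, so counts and medians over the 10 genes are descriptions. Some genes of the marker lists entered in the same way, so counts and medians over the lists are descriptions as well. Libraries were scaled by TMM, and 1 model held all 9 mice (glmQLFit, then glmQLFTest, the quasi-likelihood test), with Benjamini-Hochberg adjustment over all genes tested. The pipeline was tested on simulated data. Ratios to Ptprc were compared by two-sided exact permutation tests. Each library is its own mouse per the labels, and libraries of one genotype differed beyond sampling noise (chi-square per degree of freedom 13.3 to 305).

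The 10 genes and the marker lists were chosen with earlier results of these data known. Named in the text are the 10 genes, the 2 highest and 2 lowest genes of each list in Atg7-KO against cont. as far as needed, the 3 genes most like Ptprc, Cd3e, Cd79a and Nkg7, and Atg7 and Xist. Other list genes named in the text (such as Clec4f, Ccl5, Prf1, Klrb1c, Gzmb, Ptprcap, Cd72, Bank1, Jchain, Plcg1 and Hba-a1) were chosen after their values were seen, and some genes of the lists are not reported here. Positions are those of GENCODE on GRCm38, and start-site windows those of RefSeq on GRCm38.p6. Alternatives were DESeq2, 3 other scalings, 2 other filters, a replicate block, the 20 most abundant genes left out, 2 other thresholds, each mouse left out in turn, and the mice numbered 1 left out.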

Additional observations from a re-analysis of the deposited data

How the results depend on the processing

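Ptprc, Cd8a, Nkg7 and Gzma were called in both comparisons with Atg7-KO under every alternative in which they were tested. The 6 genes called in Atg7-KO against cont. were 2 of 5 tested members (Ptprc and Cd3g) with at least 10 counts required in every mouse, 4 with glmTreat against a 1.5-fold change, 4 without the mice numbered 1, and 4 to 6 with 1 mouse left out. The 4 called in Atg7-KO;p62T352A against Atg7-KO were 7 with scaling by total counts (with Cd3e, Cd4 and Ms4a1), 1 with at least 10 counts in every mouse, 5 without the mice numbered 1, and 4 whichever mouse was left out. The 1 called in Atg7-KO;p62T352A against cont. was 0 with at least 10 counts in every mouse, with glmTreat and without the mice numbered 1, and 0 to 2 with 1 mouse left out. The stricter count filter left out Cd8a, Nkg7 and Gzma; the cause of the other changes was not tested.

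Over all tested genes, the calls higher and lower with glmTreat were 2138 and 1717, 2157 and 2561, and 101 and 152 in the 3 comparisons, in place of 3006 and 3074, 3443 and 3652, and 870 and 743. In Atg7-KO;p62T352A against cont. they ran from 244 and 191 without Atg7-KO;p62T352A mouse 3 to 1514 and 1731 without cont. mouse 1, and were 1314 and 1661 without the mice numbered 1.

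Log2 fold changes that turned in sign were those of genes not called. Cd4 in Atg7-KO against cont. was 0.43 with total counts and 0.28 without the mice numbered 1, and ran from -0.52 to 0.30 with 1 mouse left out. Cd79a was 0.32 with total counts and ran from -0.54 to 0.30 in that comparison. In Atg7-KO;p62T352A against Atg7-KO, Cd79a was -0.080 with upper-quartile scaling, -0.54 with total counts, -0.017 with at least 10 counts and -0.24 without the mice numbered 1, and ran from -0.16 to 0.36, and Cd79b ran from -0.52 to 0.028. Against cont., Ptprc was 0.00052 with at least 10 counts and ran from -0.21 to 0.12, Cd79a ran from -0.48 to 0.36, Cd79b was -0.20 without the mice numbered 1 and ran from -0.12 to 0.43, and Ms4a1 ran from -0.60 to 0.056. Ratios to Ptprc that turned were those of Nkg7 (-0.22) and Gzma (-0.23) in Atg7-KO against cont. with 1 CPM added and of Cd79b against cont. with raw counts (-0.0037). With 1 mouse left out the ratios ran from -0.63 to 0.058 for Cd3e in Atg7-KO against cont., from -0.049 to 0.58 for Cd8a in Atg7-KO;p62T352A against Atg7-KO, and against cont. from -0.39 to 0.32 for Cd79a, -0.35 to 0.48 for Cd79b and -0.68 to 0.17 for Ms4a1.

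Mice with the same number in different genotypes had correlations of their deviations of -0.20 to 0.32, over 0.1 in 6 of 9 pairs. Only 5 of 9 mice correlated best with their own number, so the numbers were not taken to pair the mice. The number 1 does mark the males by Xist, and the mice numbered 1 had correlations of 0.27, 0.14 and 0.26 with each other. With the number as a replicate block, 5 genes (without Cd3e, adjusted p = 0.0565), 4 genes and 1 gene were called, Ptprc in Atg7-KO;p62T352A against cont. was 0.0087, and 517 and 471 of all genes were called higher and lower in that comparison. Depth limits the low members most: Cd8a, Gzma, Nkg7, Ms4a1 and Cd3e had at most 13 counts in any cont. mouse.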
